A study of Mus musculus with 7 samples.

Results

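Reads over a set of germ-cell genes were compared between spleens of mice labelled Fpr2KO (n = 4) and spleens labelled WT, with the genotype C57BL/6N (n = 3). Fpr2 encodes a receptor of myeloid cells for formylated peptides. The set held 10 of the 55414 genes counted. Rhox5, Lin28a, Tdrkh, Rnf17 and Ly6k were taken because their reads were lower in Fpr2KO in this same comparison. Lin28b, Tdrd7, Piwil2, Piwil4 and Ddx4 were added as their relatives in sequence or pathway. The members entered the fit across all genes, but because they were chosen on its outcome their values and calls are given as a description and no p is read for them. The sources used here do not give how the Fpr2KO mice were made, their background, or the age and sex of either group. The labels number the libraries but do not tie them to separate animals, so p-values measure only the spread between libraries, which may be technical.

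Germ cells guard their genome with PIWI proteins, which use small piRNAs to silence transposons, and with tudor-domain proteins that hold the PIWI proteins in granules around the mitochondria and nucleus. LIN28 proteins bind precursors of the let-7 microRNAs and block their maturation, which keeps early germ cells and embryonic cells undifferentiated. Most of these genes are silent in adult somatic tissue, many of them under promoter DNA methylation. In mouse cells a Polycomb complex that holds E2F6, MGA and MAX also represses germline genes, through E2F sites and E-boxes in their promoters.

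The libraries held between 14968605 and 18692809 counts, and 3 counts in 1 library, the floor used here, corresponded to between 0.156 and 0.201 CPM (read counts per library scaled to a common depth with TMM factors). Fpr2 had 0 reads in each of the 4 Fpr2KO libraries and 537, 479 and 477 in the WT libraries (exact two-sided permutation p = 0.0286, the smallest that 35 splits allow). All 12 spleen markers had reads in enough libraries to be tested, and Ptprc, the pan-leukocyte gene, averaged 1260 ± 145 CPM in Fpr2KO and 1290 ± 139 CPM in WT (SD). The Y-linked genes Ddx3y (122 ± 11.8 CPM in Fpr2KO, 107 ± 29.6 in WT), Kdm5d, Uty and Eif2s3y were read in every library, and the X-inactivation RNA Xist had at most 5 reads in any. By these reads every library, Fpr2KO and WT, has the pattern of male tissue, though the labels do not give the sex. Some libraries stood apart. Summed pancreatic acinar markers reached 868 and 497 CPM in Fpr2KO replicates 1 and 2, against 39.5 and 35.7 CPM in replicates 3 and 4 and at most 49.1 CPM in WT. Summed adipocyte markers were at 45.9 CPM in WT replicate 3, against 10.5 to 16.4 CPM in Fpr2KO and 19.7 and 16.2 CPM in WT replicates 1 and 2.

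Promoters of the members are shown first, because germline promoters are known for their CpG content and 5 members were lower in every Fpr2KO library. RefSeq gave a promoter for 7 of the 10 members, in 10 windows. Rnf17, Ly6k and Piwil2 had none in the table. The 3 printed are those of members that were lower in every Fpr2KO library. They run 5′ to 3′ on the strand of the gene, in build GRCm38.p6, and end at the base before the first annotated start in that window, with each CpG in capitals.
Rhox5: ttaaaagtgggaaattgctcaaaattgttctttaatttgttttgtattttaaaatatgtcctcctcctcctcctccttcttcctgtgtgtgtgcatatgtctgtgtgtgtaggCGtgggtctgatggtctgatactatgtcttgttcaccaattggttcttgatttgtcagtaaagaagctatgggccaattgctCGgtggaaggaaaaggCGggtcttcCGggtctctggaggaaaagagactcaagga
Lin28a: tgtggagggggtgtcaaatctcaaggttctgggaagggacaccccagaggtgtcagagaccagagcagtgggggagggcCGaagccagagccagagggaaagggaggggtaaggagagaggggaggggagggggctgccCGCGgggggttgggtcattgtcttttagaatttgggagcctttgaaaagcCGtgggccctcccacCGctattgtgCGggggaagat
Tdrkh: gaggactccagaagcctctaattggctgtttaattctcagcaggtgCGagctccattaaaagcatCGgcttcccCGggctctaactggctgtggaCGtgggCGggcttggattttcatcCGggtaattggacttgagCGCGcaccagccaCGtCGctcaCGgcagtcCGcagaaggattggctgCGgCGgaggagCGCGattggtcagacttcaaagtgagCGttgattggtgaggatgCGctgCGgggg
The Rhox5 stretch is chrX:37754358-37754607 on the plus strand, the Lin28a stretch chr4:134018842-134019066 on the minus strand and the Tdrkh stretch chr3:94412994-94413243 on the plus strand. The RefSeq start of Rhox5 lies 50234 bases upstream of the start in GENCODE M21, so this window lies at a distant start and not at the one GENCODE gives.

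The printed stretches hold 4 CpGs in 250 bases for Rhox5, 6 in 225 for Lin28a and 19 in 250 for Tdrkh. Over the full windows, from 250 bases before to 50 after the RefSeq start, Rhox5 had 5 CpGs, Lin28a 10 and Tdrkh 25, beside a median of 7 over 32851 promoters. Fewer CpGs than in the member's window were found in 38.0% of promoters for Rhox5, 56.5% for Lin28a and 81.6% for Tdrkh. The motif TCCCGC of E2F sites, searched on both strands, was in none of these 3 windows, beside 6562 of the 32851 promoters. The E-box CACGTG, which reads the same on both strands, was in none of the 3 and in 7.15% of all promoters. The windows of Ddx4, a member that was not lower, held 38 CpGs and 1 copy of each motif, a pair found in 1.99% of promoters. Lin28b had the E-box without the E2F motif, and the windows of Tdrd7 and Piwil4 had neither. The map of promoter positions shows these windows. Of the 5 members that were lower, 3 had a window, with CpG counts from 5 to 25.

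**Figure D1:**
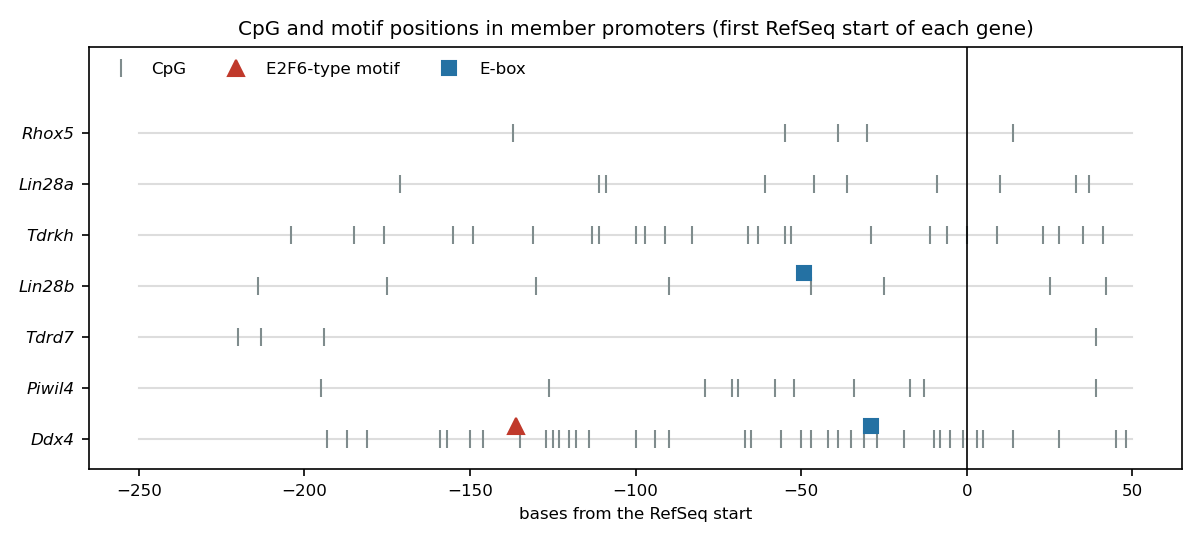
Positions of CpGs (ticks), the E2F6-type motif (triangle) and the E-box (square) in the first RefSeq promoter window of 7 members, in bases from the RefSeq start (0). Rhox5 has 5 CpGs and Ddx4 38, and only Ddx4 holds both motifs.

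Rhox5, an X-linked homeobox gene of the reproductive tract that lies in a cluster of Rhox genes, was read in every WT library and in no Fpr2KO library. It had 0 reads in all 4 Fpr2KO libraries, against 83, 79 and 84 reads in WT, or 5.56, 5.18 and 5.17 CPM. The groups were far apart and the WT libraries nearly equal. By the floor of 3 counts per library Rhox5 was at least 29.8-fold lower in Fpr2KO. The WT libraries differed from each other by less than counting error, with squared deviations 0.145 times those of Poisson counts (2 degrees of freedom). Rhox5 (ENSMUSG00000095180) lies at chrX:37804842-37808876 on the plus strand of GRCm38, and none of its 705 stretches of 50 bases was found in a transcript of another gene.

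The rest of the Rhox cluster was nearly unread in both groups. Of 33 other Rhox genes, 32, Rhox1 among them, had no read in any library, and Rhox4a had 1 read, in Fpr2KO replicate 2. None could be tested. The nearest gene upstream with at least 1 CPM, the splicing factor gene Rnf113a1, averaged 4.70 ± 0.542 CPM in Fpr2KO and 5.0 ± 0.863 CPM in WT, and the nearest downstream, the methyl-CpG-binding repressor gene Zbtb33, 52.7 ± 4.10 and 48.5 ± 3.42 CPM (SD, n = 4 Fpr2KO and n = 3 WT). Within 1 Mb of Rhox5, 15 genes that averaged 1 CPM or more were tested, with log2 fold changes (Fpr2KO minus WT) between -0.12 and 0.14. By edgeR and by DESeq2 0 of them were called, and 0 had an unadjusted edgeR p under 0.05. Over all genes tested 4.98% had such a p, the share to set beside this and later counts.

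The 3 genes closest to Rhox5 in pattern were Gm21887, Gm47283 and Fpr2 itself. Their log2 CPM, centred over the 7 libraries, differed from that of Rhox5 by 0.260, 0.481 and 1.26 on average. Gm21887 averaged 0.0261 ± 0.0521 CPM in Fpr2KO and 4.34 ± 0.911 CPM in WT, and Gm47283 0.0148 ± 0.0296 and 11.7 ± 1.5 CPM. With so few reads on the Fpr2KO side, this likeness says only that reads were nearly confined to WT. The annotation places Gm21887 at chrX:170009659-170019281 and Gm47283 at chrY:90784738-90816464, neither of them near Rhox5 at chrX:37804842-37808876. What sets their reads apart between the groups was not tested.

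Lin28a, the RNA-binding inhibitor of let-7 maturation, was lower in every Fpr2KO library than in any WT library. It had 22, 18, 20 and 28 reads in Fpr2KO, against 56, 57 and 51 reads in WT. In CPM these were 1.30, 0.966, 1.18 and 1.46 in Fpr2KO and 3.75, 3.74 and 3.14 in WT. The highest Fpr2KO library was below the lowest WT library by more than the range within either group. The Fpr2KO mean was 34.6% of the WT mean, a log2 fold change of -1.52 (SE 0.23). Squared deviations within the groups were 0.614 times those of Poisson counts. Lin28a (ENSMUSG00000050966) lies at chr4:134003330-134018841 on the minus strand. Its antisense neighbour Gm13061, which overlaps 5.9% of its exon bases, had no read.

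Its paralogue Lin28b, which acts on let-7 in fetal blood progenitors, had 1 read, in Fpr2KO replicate 1, and 0 in the other 6 libraries. Both groups were under the floor and no fold is given. Partners and targets of LIN28 ranged from 3 reads over all libraries (Igf2bp1) to 19018 (Tut7), beside 252 for Lin28a. Among 16 such genes counted, 13 were tested and their median log2 fold change was -0.01. Neither edgeR nor DESeq2 called any (0), and 1 had an unadjusted edgeR p under 0.05. The uridylyl transferase genes Tut7 and Tut4, which tag let-7 precursors bound by LIN28, were at log2 fold changes of -0.06 (SE 0.16) and, for Tut4, 0.08 (SE 0.10). Dis3l2, the nuclease that degrades the tagged precursors, was at -0.14 (SE 0.10). Myc, a let-7 target gene, averaged 53.8 ± 2.49 CPM in Fpr2KO and 62.6 ± 3.85 CPM in WT. Its groups did not overlap, and its difference on the log2 scale, -0.22 (SE 0.08), missed the threshold (edgeR adjusted p = 0.916). Arid3a, a B cell factor gene targeted by let-7, was at -0.26 (SE 0.12; edgeR adjusted p = 1).

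Of the neighbours of Lin28a, Dhdds, a dolichol synthesis gene 17.9 kb downstream, averaged 37.3 ± 2.84 CPM in Fpr2KO and 45.2 ± 3.07 CPM in WT without overlap (log2 fold change -0.28, SE 0.09, edgeR adjusted p = 0.872). Zfp683, a lymphocyte zinc finger gene 35 kb upstream, averaged 1.76 ± 0.283 CPM in Fpr2KO and 1.72 ± 0.274 CPM in WT. Of 41 such genes within 1 Mb, edgeR and DESeq2 called 0, and 2 had an unadjusted edgeR p under 0.05.

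**Figure D2:**
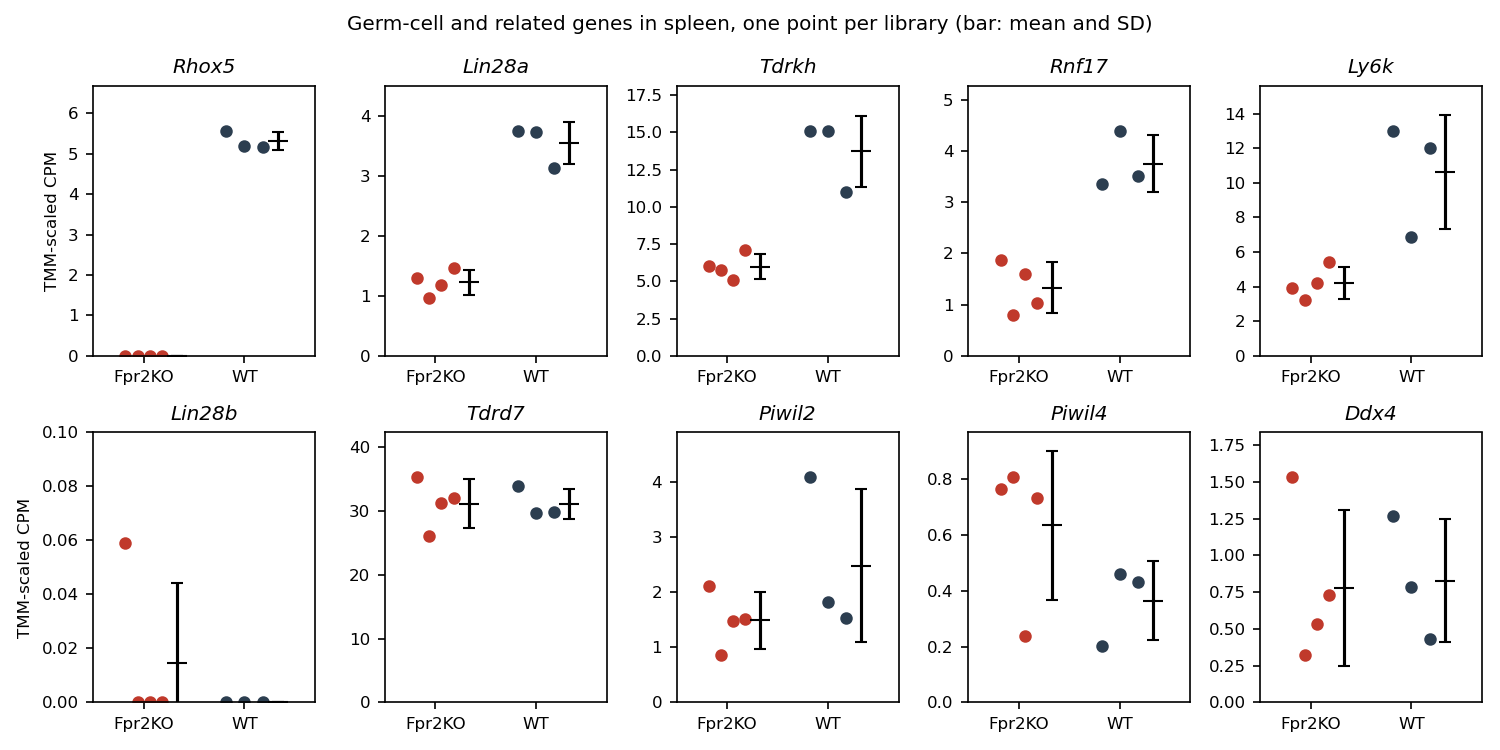
TMM-scaled CPM of each member, 1 point per library, with Fpr2KO (red) left of WT (dark) and the mean ± SD beside the points. Rhox5 is at 0 in all Fpr2KO libraries, Lin28a, Tdrkh, Rnf17 and Ly6k are lower in every Fpr2KO library, and the other 5 overlap.

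Among the tudor-domain members, Tdrkh and Rnf17 were lower in every Fpr2KO library and Tdrd7 was not. Tdrkh tethers PIWI proteins to mitochondria and helps trim piRNA ends. It had 103, 107, 86 and 136 reads in Fpr2KO, against 225, 230 and 178 reads in WT. The CPM were 6.06, 5.74, 5.09 and 7.09 in Fpr2KO and 15.1, 15.1 and 11 in WT, with no overlap. The Fpr2KO mean was 43.8% of the WT mean (log2 fold change -1.19, SE 0.17).

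Tdrkh (ENSMUSG00000041912, chr3:94413273-94434668, plus strand) shares 36.7% of its exon bases with Oaz3, an antizyme gene on the other strand. The sources used here do not say whether reads were counted by strand, so reads of the pair may be mixed or left out there. Oaz3 had 18, 30, 12 and 23 reads in Fpr2KO and 16, 12 and 9 in WT, few beside those of Tdrkh, and its log2 fold change was 0.52 (edgeR adjusted p = 1). The gene Mrpl9, of the mitochondrial ribosome, 30 kb downstream of Tdrkh, was at -0.01 (SE 0.09), and the thioesterase gene Them4, 103.2 kb upstream, at -0.30 (SE 0.20). Neither passed. Of 32 such genes within 1 Mb, edgeR and DESeq2 called 0, and 1 had an unadjusted edgeR p under 0.05.

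Rnf17 encodes a RING-finger and tudor protein of male germ cell granules. It had 32, 15, 27 and 20 reads in Fpr2KO, against 50, 67 and 57 reads in WT. In CPM it was at 1.88, 0.805, 1.6 and 1.04 in Fpr2KO and at 3.35, 4.39 and 3.51 in WT. The groups did not overlap, though the Fpr2KO libraries varied more in proportion (CV 37.2%) than the WT ones (14.9%). The Fpr2KO mean was 35.5% of the WT mean (log2 fold change -1.5, SE 0.30). Rnf17 (ENSMUSG00000000365, chr14:56402581-56525032, plus strand) shares no 50-base stretch with another gene. Its nearest neighbours, the granzyme gene Gzmb (-0.14, SE 0.17) and the centrosome gene Cenpj (0.09, SE 0.11), did not pass. Of 44 such genes within 1 Mb, edgeR and DESeq2 called 0, and 4 had an unadjusted edgeR p under 0.05. The lowest was the basophil protease gene Mcpt8 (-1.68, edgeR adjusted p = 0.85), chosen after its values were seen.

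Tdrd7, known in mouse from germ cell granules and the lens, was the most abundant relative. It had 35.2, 26.1, 31.2 and 32.0 CPM in Fpr2KO, against 33.8, 29.7 and 29.8 CPM in WT. The ranges overlapped and the means were equal to 3 digits (31.1 ± 3.78 and 31.1 ± 2.36 CPM, SD), with a log2 fold change of 0.00 (SE 0.12). Of the 11 other tudor-domain genes counted, 5 were tested. Neither edgeR nor DESeq2 called any (0), and 0 had an unadjusted edgeR p under 0.05. These were the widely expressed Tdrd3 (0.16, SE 0.12), the splicing genes Smn1 (0.02) and Smndc1 (0.01), the nuclease gene Snd1 (0.01) and the mitochondrial anchor gene Akap1 (-0.02), given here to complete the 5. The germ-cell members Tdrd1, Tdrd5, Tdrd6, Tdrd9 and Tdrd12 had between 1 and 13 reads over all 7 libraries and were not tested.

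The PIWI genes and Ddx4 were read at low levels with overlapping groups. Piwil2, whose protein binds primary piRNAs in mouse germ cells, had 36, 16, 25 and 29 reads in Fpr2KO, against 61, 28 and 25 reads in WT. Its CPM ran from 0.858 to 2.12 in Fpr2KO and from 1.54 to 4.09 in WT. WT replicate 1 lay well above the other libraries. The log2 fold change was -0.73 (SE 0.40), and -0.18 at the weakest with 1 library left out. Piwil4, the nuclear PIWI protein that guides transposon methylation in mouse fetal testis, had 13, 15, 4 and 14 reads in Fpr2KO and 3, 7 and 7 in WT. Its direction was opposite to that of the lower members (log2 fold change 0.79, SE 0.52), and Fpr2KO replicate 3 lay among the WT libraries. Ddx4, the Vasa helicase that marks germ cells, had 26, 6, 9 and 14 reads in Fpr2KO and 19, 12 and 7 in WT. It ranged from 0.322 to 1.53 CPM in Fpr2KO and from 0.431 to 1.27 CPM in WT (log2 fold change -0.09, SE 0.56).

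Other genes of the piRNA pathway ranged from unread to abundant in spleen. Of 20 in the list, 4 had no read and 9 at most 10 reads over all libraries. For the 6 tested the median log2 fold change was 0.03. Neither edgeR nor DESeq2 called any (0), and 0 had an unadjusted edgeR p under 0.05. Ago2 and Ago1, of the microRNA-binding relatives of PIWI, averaged 122 ± 15.8 and 71.2 ± 6.40 CPM in Fpr2KO and 122 ± 31.0 and 63.0 ± 1.44 CPM in WT. Ago4 had a log2 fold change of 0.10 (SE 0.16). Tex15, needed for transposon silencing in mouse testis, averaged 0.812 ± 0.174 CPM in Fpr2KO and 1.45 ± 0.686 CPM in WT (log2 fold change -0.84, SE 0.39, edgeR adjusted p = 1).

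Ly6k, a GPI-anchored surface protein of germ cells that partners TEX101 in mouse testis, was lower in every Fpr2KO library, with a narrow gap. It had 67, 60, 71 and 104 reads in Fpr2KO, against 194, 105 and 195 reads in WT. In CPM it was at 3.94, 3.22, 4.21 and 5.42 in Fpr2KO and at 13.0, 6.88 and 12.0 in WT. WT replicate 2 was nearer to the Fpr2KO libraries than to the other WT libraries. The Fpr2KO mean was 39.5% of the WT mean (log2 fold change -1.34, SE 0.25). Its squared deviations within groups were 8.45 times those of Poisson counts, the highest ratio among the 10 members. Ly6k (ENSMUSG00000044678, chr15:74796874-74799986, minus strand) has the antisense gene Gm17189 over 47.6% of its exon bases, which had 11 reads in Fpr2KO and 11 in WT. As for Tdrkh, reads of the pair may be mixed or left out there.

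The relatives of Ly6k in the Ly6 family include leukocyte surface genes and genes of other tissues. Of 19 counted, 10 were tested and their median log2 fold change was -0.10. By edgeR 0 were called, and 3 had an unadjusted p under 0.05, beside 4.98% of all genes tested. Ly6e and Ly6d, the most abundant, were both at -0.10 (SE 0.09 and 0.11), and Ly6d is also the nearest gene downstream of Ly6k. Ly6g, the neutrophil surface marker gene, averaged 5.54 ± 2.45 CPM in Fpr2KO and 12.9 ± 2.59 CPM in WT without overlap (log2 fold change -1.22, SE 0.31, edgeR adjusted p = 0.605), and DESeq2 called it (adjusted p = 0.025). Ly6c2, of monocytes, was at -0.52 (SE 0.14, edgeR adjusted p = 0.597) and Lynx1, whose groups did not overlap, at -0.27 (SE 0.10, edgeR adjusted p = 0.892). The nearest gene upstream, 2010109I03Rik, was at -0.52 (SE 0.39). Of 18 such genes within 1 Mb of Ly6k, edgeR called 0, and 4 had an unadjusted edgeR p under 0.05, beside 4.98% of all genes tested. DESeq2 called 2 as lower, beside 0.305% of all genes. These were Ly6g and I830127L07Rik, the second of them named after its values were seen.

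**Figure D3:**
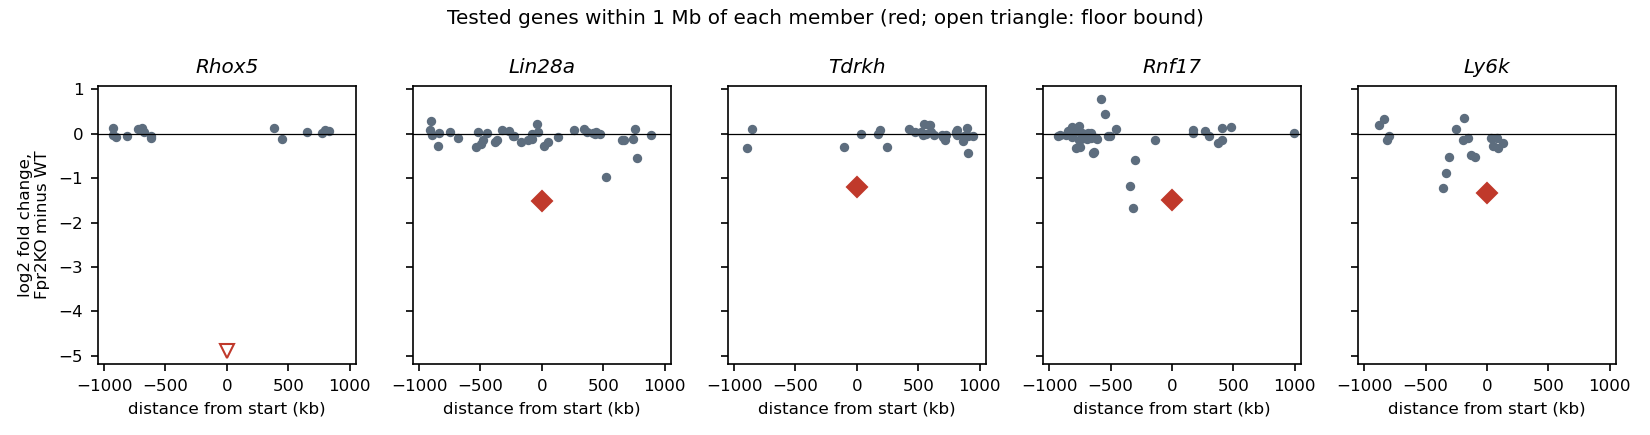
Log2 fold change (Fpr2KO minus WT) of the tested genes within 1 Mb of each member chosen on its values, against the distance in kb between start sites, with positive distances downstream. The members are in red, and an open triangle marks the floor bound of Rhox5 at -4.90. Their low place was fixed by their choice. Their nearest neighbours run from -0.52 to 0.12. All tested genes in the window run from -1.68 to 0.79 for Rnf17 and from -1.22 to 0.36 for Ly6k.

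Per kb of annotated exon, the members spanned a wide range of levels. The lengths include exon bases under an antisense gene, 47.6% of those of Ly6k and 36.7% of those of Tdrkh. Since the strand setting is not known, the levels and places of these members are uncertain. In Fpr2KO Tdrd7 was highest at 7.86 ± 0.955 CPM per kb, followed by Ly6k at 5.06 ± 1.11 and Tdrkh at 0.977 ± 0.136, with no overlap between these neighbours. Lin28a (0.307), Piwil2 (0.282), Ddx4 (0.258), Rnf17 (0.214) and Piwil4 (0.118) followed, each overlapping the next. Lin28b and Rhox5 came last. In WT Ly6k was highest at 12.8 ± 3.96 CPM per kb and overlapped Tdrd7 at 7.86 ± 0.596. Rhox5 followed at 7.03 ± 0.298, then Tdrkh at 2.23 ± 0.387 and Lin28a at 0.887 ± 0.0875, without overlap. Rnf17 (0.601) overlapped Piwil2 (0.470), and Piwil2 overlapped Ddx4 (0.275). Piwil4 (0.0675) and Lin28b were lowest, below Ddx4 without overlap. The WT level of Rhox5 per kb was above that of 59.4% of tested genes, that of Ly6k above 74.5%, and that of Lin28a above 18.3%.

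Of the 10 members, 9 passed the low count filter, all but Lin28b. The edgeR test called 1 of the 9, Rhox5, and over all genes it called 6 of 16089 as lower (0.0373%) and 0 as higher. DESeq2 called 5 of the members, the ones chosen on their values, beside 0.305% of all genes called lower. In 5 members every Fpr2KO library was below every WT library, beside 3.18% of all genes tested. In 0 members was every Fpr2KO library above every WT library, beside 2.73% of all genes. Since the members were chosen on this comparison, these counts add nothing to the values above. With 1 library left out, the log2 fold changes ran from -1.62 to -1.42 for Lin28a, -1.33 to -1.11 for Tdrkh, -1.70 to -1.32 for Rnf17 and -1.57 to -1.17 for Ly6k. Without WT replicate 3 the edgeR test also called Tdrkh, and without both Fpr2KO replicates 1 and 2 it called Rhox5 alone.

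**Figure D4:**
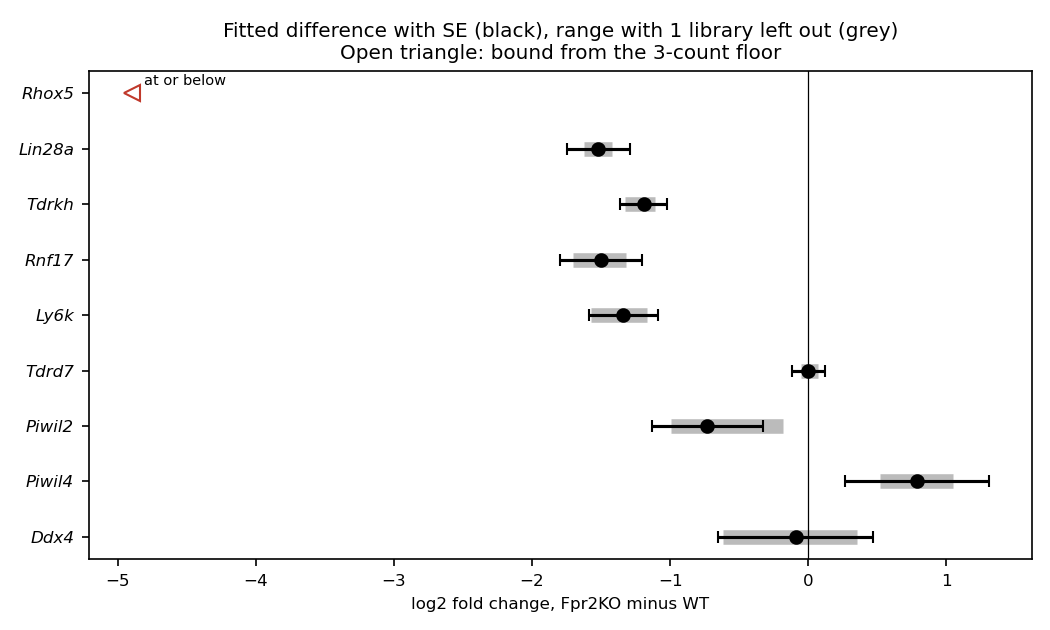
Fitted log2 fold change (Fpr2KO minus WT) with its SE for the members tested (black), and the range with 1 library left out (grey). Lin28a, Tdrkh, Rnf17 and Ly6k lie between -1.52 and -1.19, Tdrd7 and Ddx4 near 0, and Rhox5 is drawn at its floor bound of -4.90.

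Related genes outside the set were gathered in 7 lists, and in the Rhox list none could be tested. Of the 71 genes tested, edgeR called 0, and DESeq2 called 1, Ly6g. An unadjusted edgeR p under 0.05 was found in 6 of them (5 lower and 1 higher), beside 4.98% of all genes. Their log2 fold changes had a median of 0.01, beside 0.00 for all genes tested, and ran from -1.22 to 0.58. Every Fpr2KO library was below every WT library in 4 of the 71, or 5.63%, beside 3.18% of all genes. Among other germline genes, 8 of 32 were tested and 17 had at most 10 reads. Others were read in spleen, up to 1445 reads over all libraries for Zcwpw1 and 325 for Sycp2. By edgeR and DESeq2 0 were called, and 1 had an unadjusted edgeR p under 0.05. The meiotic cohesin gene Stag3 averaged 0.649 ± 0.190 CPM in Fpr2KO and 1.15 ± 0.180 CPM in WT, without overlap (log2 fold change -0.82, SE 0.34, edgeR adjusted p = 0.98). The testis bromodomain gene Brdt was at 0.49 (SE 0.34), the meiotic histone reader gene Zcwpw1 at 0.13 (SE 0.13) and the synaptonemal complex gene Sycp2 at -0.35 (SE 0.42), none of which passed.

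Genes that methylate DNA or silence the germline were all read well enough to be tested. The 29 genes had 10 log2 fold changes below and 19 above 0, and their median was 0.03. By edgeR and DESeq2 0 were called, and 1 had an unadjusted edgeR p under 0.05. The largest mean levels were those of Smchd1, which silences X-linked and clustered genes (170 ± 8.10 CPM in Fpr2KO, 161 ± 14.5 CPM in WT), and of the methyl-CpG reader gene Mbd2 (163 ± 18.7 and 164 ± 16.8 CPM). The smallest p belonged to the heterochromatin protein gene Cbx3 (log2 fold change 0.28, SE 0.12, edgeR adjusted p = 0.979), followed by the demethylation enzyme gene Tet3 (0.18, SE 0.10) and Mga, of the E2F6 complex (-0.23, SE 0.16).

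**Figure D5:**
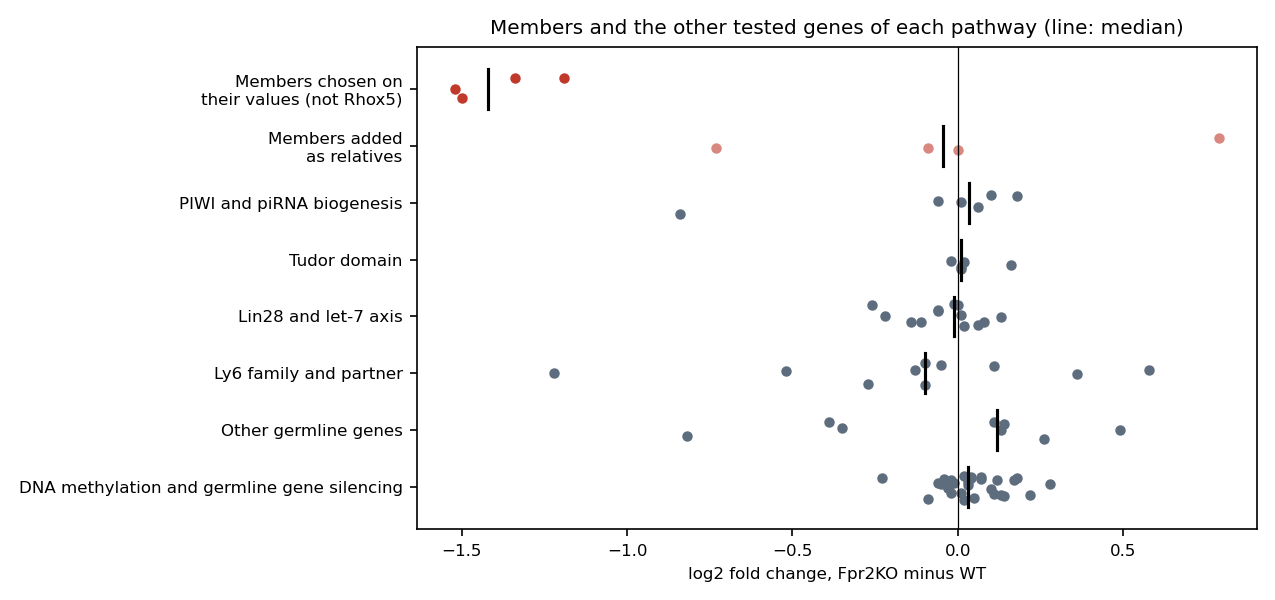
Log2 fold change (Fpr2KO minus WT) of the members (red and pink) and of the other tested genes of 6 lists with tested genes (grey), 1 point per gene, with a line at each median. Rhox5 is not drawn. The other 4 members chosen for being lower lie between -1.52 and -1.19, a place their choice fixed, and single listed genes reach -1.22 (Ly6g), -0.84 (Tex15) and -0.82 (Stag3).

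Markers of other cells were set beside the members. The 20 gonad and germ cell markers ranged from unread to abundant, and 10 had at most 10 reads over all libraries. Tnp1, Acrv1, Zp2, Zp3 and Fshr had no read in any library, and the protamine genes Prm1 and Prm2 had 2 and 1 reads, all in WT. Reads over all libraries numbered 17948 for the steroidogenic gene Star, 2346 for its regulator gene Nr5a1, 876 for the oocyte gene Oosp1, 228 for Insl3 and 144 for Cyp11a1. Of 20 gonad markers 6 were tested. By edgeR and DESeq2 0 were called, and 1 had an unadjusted edgeR p under 0.05. The summed level of all 20, mostly Star, was 141 to 223 CPM in Fpr2KO and 156 to 208 CPM in WT. Neutrophil markers were summed as well. All 15 had a log2 fold change below 0, with a median of -1.03, and their summed level was 1610 to 3230 CPM in Fpr2KO and 4120 to 5310 CPM in WT. By edgeR 0 of the 15 were called and by DESeq2 5, and for 8 the unadjusted edgeR p was under 0.05. Over all genes DESeq2 called 0.305% as lower, and 4.98% had such an unadjusted p. The sum was highest in replicate 1 among Fpr2KO libraries (3230 CPM) and in replicate 2 among WT libraries (5310 CPM). Rnf17 was highest in the same libraries, while Lin28a, Tdrkh and Ly6k were highest in Fpr2KO replicate 4, where the sum was 1720 CPM, and Ly6k was lowest of WT in replicate 2. The part of these cells in the lower reads of Lin28a, Tdrkh, Rnf17 and Ly6k was not tested, and fewer cells of a type cannot be told apart from less RNA per cell in whole spleen. Erythroid markers ranged widely, summing to 10200 to 52400 CPM in Fpr2KO and 15100 to 92700 CPM in WT, with overlap.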

How the data were processed

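PolyA RNA of mouse spleen was sequenced in 7 libraries. The authors deposited raw counts of reads per Ensembl gene, and per the submitters' processing notes these came from FastQC 0.10.1 and HTSeq 0.10.0 on mm10 (GRCm38). The aligner, annotation release and strand setting are not given in the sources used here. Symbols, positions and exon lengths were taken from GENCODE M21, which matched 52133 of 55414 IDs and 99.8% of counts. Promoter sequences are RefSeq's (GRCm38.p6).

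Counts were fitted with edgeR 4.0.16 (R 4.3.3): filterByExpr, TMM scaling and the robust quasi-likelihood F test, two-sided, on Fpr2KO against WT, with Benjamini-Hochberg adjustment over the 16089 genes kept and a threshold of 0.05. The step was tested on simulated data. SE is the log2 fold change over the square root of F. Floors cover counting error only, as reads carry no molecular identifiers. Poisson ratios set the squared deviations between libraries of a group against those of counting error. A stretch of 50 bases was called shared if another gene's GENCODE transcript held it on either strand. No 2 libraries of a group agreed within counting error (chi-square per degree of freedom at least 11.8).

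The members and lists were chosen with earlier results of these data known. Genes outside the set were named by rule: from each list any called gene, the 3 smallest p and the 2 highest means; the nearest gene on each side with 1 CPM; and the 3 nearest to Rhox5 in log2 CPM (prior count 2). From marker lists only some of the genes the rule takes are given. Others named, such as antisense partners and genes with no or few reads, were chosen with values in view. The alternatives tried were RLE scaling, DESeq2 1.42.0, limma-voom 3.58.1, 2 other filters, each library left out, Fpr2KO replicates 1 and 2 left out, and a replicate block.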

Additional observations from a re-analysis of the deposited data

Results flagged for a closer look

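In each named gene with at least 10 Fpr2KO reads, 68 in all, the 4 Fpr2KO libraries were searched for 1 that stood apart, by the gap to its nearest neighbour over the whole range (Dixon's test at the 95% level). There were 7 such genes, where chance gives about 1 in 20. The WT group of 3 was too small for this. Among members only Piwil4 was found, at 0.237 CPM in Fpr2KO replicate 3 against 0.730 to 0.805 CPM in the others. Fpr2KO replicate 1 stood apart in Tut7 (191 CPM, others 145 to 152), Brdt (3.41 CPM, others 1.51 to 1.82) and the B cell gene Ms4a1 (691 CPM, others 833 to 852). Fpr2KO replicate 2 stood apart in Tut4 (110 CPM, others 88.9 to 90.9) and the oocyte gene Oosp1 (10.2 CPM, others 5.06 to 5.87). Fpr2KO replicate 4 stood apart in Ly6e (1410 CPM, others 1240 to 1270).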

How the results depend on the processing

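With RLE scaling, limma-voom, or at least 1 CPM in 3 samples, edgeR's count of 6 called genes and the single called member, Rhox5, were unchanged. DESeq2 called 56 genes, 5 of them members and 1 a listed gene (Ly6g), and with no filter on low counts edgeR called 21 genes and 5 members. Leaving out 1 library gave between 5 and 15 called genes (10 without WT replicate 1, 15 without WT replicate 3) and between 1 and 2 members. The labels do not say whether the replicate numbers pair the libraries. Deviations of libraries with the same number correlated at 0.0778, -0.434 and -0.0733, which shows no likeness between them. So few libraries cannot decide whether the numbers stand for pairs. With the replicate block edgeR called 2 genes, 0 of them members. Over all alternatives the member log2 fold changes moved by less than the spread between libraries in 117 of 120 cases. The exceptions were all Rhox5, fitted at -9.49 in the main analysis. It was at -9 with DESeq2, -7.58 with limma-voom and -9.52 without WT replicate 2. With 0 reads in Fpr2KO its fitted value depends on the tool and the prior count. Without WT replicate 2 the move was small, beside a very small spread between the WT libraries.

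Signs turned in genes that no fit called and whose main log2 fold change was smaller than its SE. Among members these were Ddx4 (-0.62 to 0.35 with 1 library left out) and Tdrd7 (-0.05 to 0.07). Without Fpr2KO replicates 1 and 2 they were, outside the set, Ago2 (-0.05), Ly6d (0.04), Mbd2 (0.01) and Zfp683 (-0.07), and with the replicate block Mrpl9 (0.01). With 1 library left out the ranges were 0.00 to 0.29 for Ago4, -0.19 to 0.17 for Ago2, -0.04 to 0.07 for Smn1, 0.00 to 0.03 for Smndc1, -0.07 to 0.18 for Snd1, -0.23 to 0.09 for Tut7, -0.01 to 0.13 for Tut4, -0.65 to 0.28 for Sycp2, -0.09 to 0.06 for Mbd2, -0.18 to 0.06 for Rnf113a1, -0.07 to 0.18 for Zfp683, -0.08 to 0.06 for Mrpl9 and -0.22 to 0.04 for Gzmb. The cause was not tested. Counting only the bases before the start, TCCCGC was in 16.9% and CACGTG in 6.02% of promoters. Reads of Lin28b, Ddx4 and Piwil4 were too few for a small difference to be seen.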
